A study of Homo sapiens with 4 samples.

Results

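The 9 genes described here, out of 26364 listed in each sample, encode proteins that act with the transcription factor MYCN or set its stability. They were taken by gene symbol, with no threshold on their values, though earlier results of these data were known. TFAP4 is an E-box binding factor. WDR5, TRRAP and ZBTB17 are cofactors of MYC proteins at chromatin. AURKA and PLK1 are mitotic kinases. FBXW7, HUWE1 and USP7 are ubiquitin enzymes. Each of the 9 was listed once and passed the filter on low values.

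MYCN is a helix-loop-helix factor that pairs with MAX and binds E-box sequences in promoters. It recruits WDR5 and the histone acetyltransferase scaffold TRRAP to genes that it activates, and it joins ZBTB17, also called MIZ1, at genes that it represses. The MYCN protein is short-lived. FBXW7 marks it for degradation after phosphorylation, and AURKA and PLK1 are known to shield it from FBXW7 in neuroblastoma cells, where MYCN amplification marks aggressive disease.

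The RNA came from BE(2)C cells, a human neuroblastoma line with amplified MYCN that the labels write as BE2C, in 2 conditions with 2 samples each. Ctrl cells, labelled wild type, received a non-targeting siRNA, and MYCN KD cells, labelled MYCN kd, received an siRNA against MYCN. The labels give 80 nM siRNA, 6 h of incubation with Lipofectamine and RNA extraction on the next day for both conditions, while the study's methods give a lower final siRNA concentration. The knockdown was therefore transient, in 1 line and with 1 siRNA per condition. The methods call the replicates biological, and neither they nor the labels say whether each came from a separate culture, so each p-value measures the spread between these samples, which may be technical.

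Values are RPKM, reads per kilobase of gene scaled by the reads of the sample, which the authors calculated after removing unwanted variation. The total of normalized reads behind them, fitted for each sample, was between 29055819 and 34142988. Reads given below are normalized reads recovered from the same values. The 2 replicates of Ctrl and the 2 of MYCN KD deviated from their group means as mirror images, with a correlation of -0.98 between the deviations of Ctrl replicate 1 and MYCN KD replicate 1 across 11411 genes. The cause was not tested. The spread behind each test is thus that of adjusted values. Differences are log2 fold changes of RPKM + 1, MYCN KD against Ctrl, and were tested with limma across the 11411 genes whose mean RPKM reached 1, with a threshold of 0.05 on the adjusted p. This scale understates the change of genes with low RPKM.

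MYCN itself (chromosome 2, 16080672 to 16087129) gave 1068 and 1073 RPKM in Ctrl against 720.2 and 718.0 RPKM in MYCN KD. The MYCN KD mean was 67.2% of Ctrl, so a large part of the transcript remained. MAX, the binding partner of MYCN, had 35.8 and 34.5 RPKM in Ctrl against 24.4 and 25.3 RPKM in MYCN KD. MYC, the paralog, was low in Ctrl at 0.780 and 0.542 RPKM and reached 6.73 and 9.32 RPKM in MYCN KD. Of 12 neuroblastoma markers, such as HAND2, all 12 passed the filter, and their summed level was 3410 to 3657 RPKM in Ctrl and 4906 to 5250 RPKM in MYCN KD. Of 22 markers of other cell types, 16 did not pass the filter. The 5 endothelial markers stayed under 0.526 RPKM, and the blood marker HBB and the epithelial marker KRT5 were at 0 in every sample. The 6 that passed were LUM, THY1, DCN, COL1A1, CD68 and CLDN4. The summed fibroblast list held 222.5 to 228.2 RPKM in Ctrl and 264.8 to 271.3 RPKM in MYCN KD, nearly all of it THY1, the blood list 3.53 to 4.33 and 9.45 to 11.5 RPKM, and the epithelial list 3.16 to 3.57 and 9.94 to 11.1 RPKM. Their part in the results was not tested.

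Of the 9 genes, 6 were lower in MYCN KD, namely TFAP4, AURKA, FBXW7, PLK1, WDR5 and USP7. ZBTB17 was the 1 gene that was higher, and TRRAP and HUWE1 did not pass the threshold. With each sample scaled to equal total RPKM, 5 were lower and 2 higher. Of all 11414 genes tested with that scaling, 2120 were lower and 3282 higher. Without that scaling, 22.8% of all 11411 tested genes were lower and 25.3% were higher by the same rule. The median log2 fold change of the 9 genes was -0.35, and that of all tested genes was 0.026. In 7 of the 9 genes both MYCN KD values lay below both Ctrl values, and in the other 2 both lay above, while 35.8% of all tested genes were separated downwards and 40.4% upwards. Separation of the samples was therefore common in these files. The size of the change set the 9 genes apart from each other, from 30.7% of the Ctrl level in TFAP4 to 131% in ZBTB17.

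**Figure D1:**
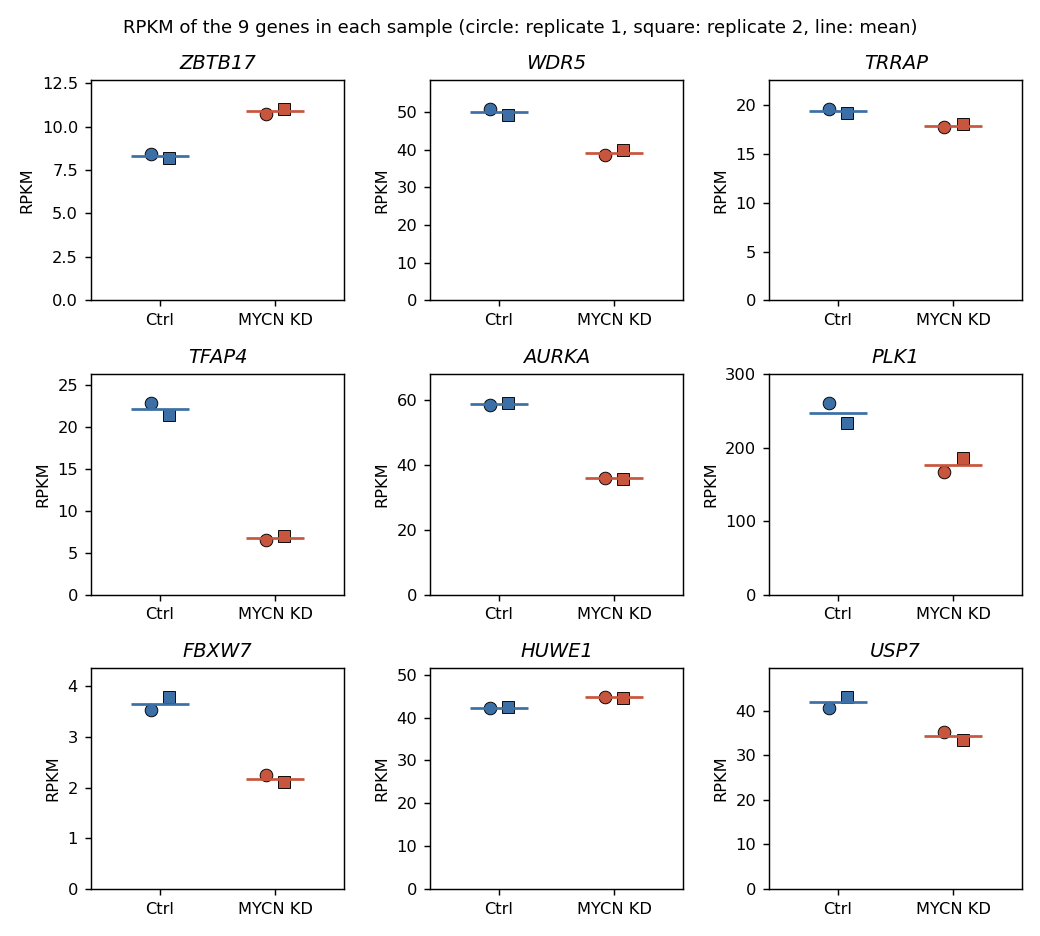
RPKM of each of the 9 genes in the Ctrl samples (blue) and the MYCN KD samples (red), with circles for replicate 1, squares for replicate 2 and lines for the group means. Every vertical axis starts at 0. The groups do not overlap in any gene, and the gap is widest relative to the level in TFAP4, from 21.3 to 22.8 RPKM in Ctrl against 6.56 to 7.02 RPKM in MYCN KD.

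In Ctrl the transcript levels, which RPKM gives per gene length, ran from PLK1 through AURKA, WDR5, HUWE1 and USP7 to TFAP4, TRRAP, ZBTB17 and FBXW7. PLK1 averaged 247 RPKM and FBXW7 averaged 3.65 RPKM. HUWE1 and USP7 were not separable in Ctrl, where USP7 at 40.7 and 43.1 RPKM enclosed HUWE1 at 42.3 and 42.5 RPKM. The other neighbours in this order did not overlap. In MYCN KD the order was PLK1, HUWE1, WDR5, AURKA, USP7, TRRAP, ZBTB17, TFAP4 and FBXW7. TFAP4 moved from the place above TRRAP and ZBTB17 to the place below both. AURKA moved from the place above WDR5 and HUWE1 to the place below both, though the gap between AURKA, at 36.1 and 35.8 RPKM, and USP7, at 35.2 and 33.4 RPKM, was small in MYCN KD.

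TFAP4, a helix-loop-helix leucine zipper factor that binds the E-box CAGCTG and is a known target of MYC proteins, changed most. It lies on chromosome 16 from 4307187 to 4323076 in the hg19 genome, on the minus strand, with 7 exons. It had 22.8 and 21.3 RPKM in Ctrl, from 1669 and 1460 reads, against 6.56 and 7.02 RPKM in MYCN KD, from 408 and 465 reads. Both MYCN KD samples were below 8 RPKM and both Ctrl samples above 21 RPKM. The group means were 22.1 ± 1.07 RPKM in Ctrl and 6.79 ± 0.326 RPKM in MYCN KD (SD, n = 2 each). The log2 fold change was -1.57 (SE 0.060, adjusted p = 0.00359 from limma), with a 95% interval from -1.74 to -1.39. TFAP4 was the 7th lowest of the 11411 tested genes.

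Among 17 tested genes for other E-box binding factors and their partners, of 20 in the list, 4 fell and 2 rose. For this list and each list below, the shares to compare are those of all tested genes, 22.8% lower and 25.3% higher. The median log2 fold change of the list was -0.026. HES1, a repressor in the Notch pathway, had 11.7 and 10.7 RPKM in Ctrl against 6.36 and 6.99 RPKM in MYCN KD. MAX fell with a log2 fold change of -0.48 (SE 0.043). MLXIP and MGA, which belong to the wider MAX and MLX network, fell by 0.47 and 0.29 on the log2 scale. TFEB and TFE3, lysosomal regulators, rose with log2 fold changes of 0.36 and 0.27. Without MYCN KD replicate 1 the list had 1 riser. The fall of TFAP4 exceeded that of every tested gene in this list.

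WDR5 is the WD-repeat scaffold of the complexes that methylate histone H3 at lysine 4, and MYC proteins bind it directly. The gene (chromosome 9, 137000487 to 137025090, plus strand) had 50.9 and 49.3 RPKM in Ctrl against 38.6 and 39.9 RPKM in MYCN KD, from 3568 to 5536 reads per sample. The MYCN KD samples were both under 40 RPKM, and the Ctrl samples were both above 49 RPKM. The means were 50.1 ± 1.17 RPKM and 39.2 ± 0.929 RPKM (SD, n = 2 each), so MYCN KD held 78.3% of the Ctrl level. This is a log2 fold change of -0.35 (SE 0.040, adjusted p = 0.00971 from limma), with a 95% interval from -0.46 to -0.23. WDR5B, an intronless paralog, went the other way, with 1.86 and 1.76 RPKM in Ctrl against 2.58 and 2.72 RPKM in MYCN KD (log2 fold change 0.38, SE 0.045).

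Of 23 genes for other subunits of WDR5 complexes, all tested, 7 fell and 2 rose, with a median log2 fold change of -0.099. PAXIP1, an adaptor of the KMT2C and KMT2D complexes, fell most, from 13.1 and 14.4 RPKM to 7.70 and 7.07 RPKM. HCFC1, a host cell factor that also binds MYC proteins, and SETD1A, a methyltransferase, fell with log2 fold changes of -0.43 (SE 0.11) and -0.39 (SE 0.091). The other core subunits that fell, RBBP5 and ASH2L, changed by -0.23 and -0.20 on the log2 scale. KMT2C, another methyltransferase, rose from 6.35 and 7.28 RPKM to 11.2 and 9.80 RPKM, and NCOA6 rose with a log2 fold change of 0.19. Without Ctrl replicate 1 the list had 4 fallers and 1 riser, and without MYCN KD replicate 1 it had 3 and 1. Rescaled totals gave 4 fallers and 2 risers.

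TRRAP is a very large kinase-like protein without kinase activity that holds together the TIP60 and SAGA acetyltransferase complexes and binds the MYC transactivation domain. The gene (chromosome 7, 98475556 to 98648454, plus strand) has 73 exons. Its levels were 19.7 and 19.2 RPKM in Ctrl against 17.7 and 18.1 RPKM in MYCN KD, from 6531 to 8514 reads per sample. Both MYCN KD values were the lower ones, yet the means, 19.5 ± 0.303 and 17.9 ± 0.281 RPKM (SD, n = 2 each), were close. The log2 fold change was -0.11 (SE 0.038), short of the threshold (adjusted p = 0.0879 from limma), and its 95% interval reached from -0.22 to 0.00033. TRRAP shares 735 exonic bases with SMURF1 on the opposite strand. Whether counting used strand is not given in the sources used here, so reads from that stretch cannot be told apart. The same holds for 456 exonic bases that TRRAP shares with a lncRNA, 553 and 58 that PLK1 shares with a lncRNA and with ERN2, 408 that WDR5 shares with WDR5-DT and 127 that FBXW7 shares with FBXW7-AS1.

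Of 30 tested genes for other subunits of TRRAP complexes, of 32 listed, 10 fell and 3 rose, with a median log2 fold change of -0.17. KAT2A, the acetyltransferase GCN5 of SAGA, fell from 31.0 and 30.3 RPKM to 14.4 and 14.8 RPKM, which is 47.5% of Ctrl. RUVBL1 and RUVBL2, partner ATPases of TIP60 and other complexes, fell with log2 fold changes of -0.76 (SE 0.045) and -0.55 (SE 0.11). MEAF6, a TIP60 subunit, had 9.31 and 10.2 RPKM in Ctrl against 6.75 and 6.16 RPKM in MYCN KD. The risers were EPC2, SUPT20H and USP22, with log2 fold changes of 0.36, 0.23 and 0.18. Leaving out Ctrl replicate 2 or MYCN KD replicate 2 gave 6 fallers, and leaving out Ctrl replicate 1 or MYCN KD replicate 1 gave 1 riser. Rescaled totals gave 7 fallers and 6 risers.

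ZBTB17, the zinc finger factor MIZ1, activates genes for cell cycle inhibitors until a MYC protein joins it. ZBTB17 (chromosome 1, 16268364 to 16302627, minus strand) had 8.41 and 8.18 RPKM in Ctrl, from 802 and 731 reads, against 10.7 and 11.0 RPKM in MYCN KD, from 871 and 954 reads. Both MYCN KD samples were above both Ctrl samples, and the means were 8.29 ± 0.159 and 10.9 ± 0.216 RPKM (SD, n = 2 each). That gives a log2 fold change of 0.35 (SE 0.042, adjusted p = 0.00990 from limma), with a 95% interval from 0.23 to 0.48. Without MYCN KD replicate 2 it was 0.34 and the call was lost. That fit leaves 1 sample in the group, and its SE was 0.15 against 0.042 with all samples.

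The list of ZBTB17 partners and of genes that MIZ1 and MYC proteins are known to repress had 11 tested genes of 15, with 6 that rose, 2 that fell and a median log2 fold change of 0.40. CDKN1A, the cyclin-dependent kinase inhibitor p21, rose from 7.08 and 7.63 RPKM to 23.1 and 21.4 RPKM, which is 303% of Ctrl. ZBTB4, a methyl-CpG binding repressor, had 5.70 and 5.69 RPKM in Ctrl and 14.9 RPKM in both MYCN KD samples. TGM2, a transglutaminase, rose from 7.33 and 6.46 RPKM to 16.7 and 18.8 RPKM. CDKN2B, the inhibitor p15 and a classical MIZ1 target, rose at a low level, from 1.01 and 1.14 RPKM to 1.84 and 1.63 RPKM, and the methyltransferase DNMT3A rose with a log2 fold change of 0.60. The fallers were NPM1, a nucleolar coactivator of MIZ1, with a log2 fold change of -1.05, and HDAC1, with -0.31. The list was not split into partners and repressed genes. Without MYCN KD replicate 2 the list had 1 faller.

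**Figure D2:**
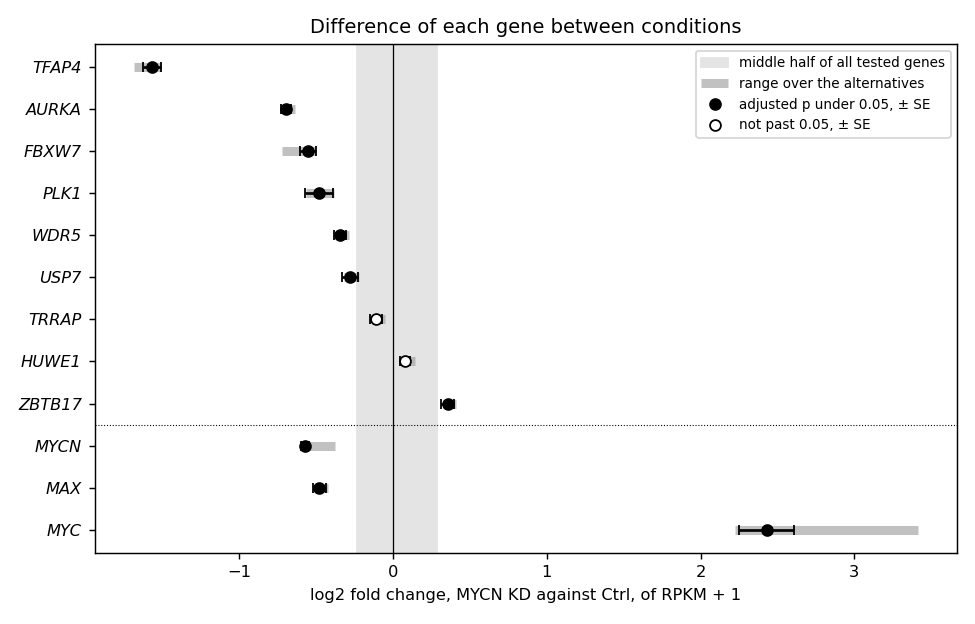
Log2 fold change of RPKM + 1 in MYCN KD against Ctrl for the 9 genes and, under the dotted line, MYCN, MAX and MYC, with error bars of 1 SE. Filled points are past an adjusted p of 0.05, open points are not, grey bars are the range over the processing alternatives set at the outset and the shaded band runs between the quartiles of all tested genes, -0.235 and 0.285. TFAP4 lies farthest to the left at -1.57, and TRRAP and HUWE1 lie inside the band.

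AURKA, the Aurora A kinase that drives centrosome maturation and binds MYCN directly, lies on chromosome 20 from 54944445 to 54967393, on the minus strand. It had 58.5 and 59.2 RPKM in Ctrl, from 5091 and 4825 reads, against 36.1 and 35.8 RPKM in MYCN KD, from 2675 and 2821 reads. The replicates lay within 1 RPKM of each other in both conditions, and the conditions lay more than 20 RPKM apart. The means were 58.9 ± 0.495 and 36.0 ± 0.248 RPKM (SD, n = 2 each), so MYCN KD held 61.1% of Ctrl. Its log2 fold change was -0.70 (SE 0.033, adjusted p = 0.00359 from limma), with a 95% interval from -0.79 to -0.60. The annotation names the pseudogene copies AURKAP1 and AURKAP2, which are not among the listed genes, and how reads shared with them were counted is not given in the sources used here.

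PLK1, the Polo-like kinase of mitotic entry, phosphorylates FBXW7 and so prevents the degradation of MYCN. It lies on chromosome 16 from 23688977 to 23701688, on the plus strand. It had 261 and 233 RPKM in Ctrl against 167 and 186 RPKM in MYCN KD, from 10782 to 19882 reads per sample. It was the highest of the 9 genes in every sample and the one whose replicates differed most, at 247 ± 20.0 and 177 ± 14.0 RPKM (SD, n = 2 each). The groups did not overlap. PLK1 had a log2 fold change of -0.48 (SE 0.092, adjusted p = 0.0250 from limma), with a 95% interval from -0.75 to -0.21, and the MYCN KD mean was 71.4% of Ctrl.

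The paralogs of these kinases did not all move with them. AURKB, the Aurora kinase of the chromosomal passenger complex, fell from 96.4 and 88.9 RPKM to 61.4 and 66.5 RPKM (log2 fold change -0.53, SE 0.069). AURKC was between 0.472 and 0.518 RPKM in all 4 samples and was not tested. PLK2 and PLK3, stress-responsive kinases, rose. PLK2 had 3.63 and 3.90 RPKM in Ctrl against 7.65 and 7.13 RPKM in MYCN KD, and PLK3 had 3.60 and 3.16 RPKM in Ctrl against 5.30 and 6.02 RPKM in MYCN KD. PLK4, which controls centriole number, had 7.40 and 8.14 RPKM in Ctrl against 6.53 and 5.96 RPKM in MYCN KD and did not pass (adjusted p = 0.0527 from limma).

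Of 11 tested AURKA partners and paralogs, of 14 listed, 4 fell and 0 rose by limma, with 1 higher at an unadjusted p under 0.05 and 0 higher by limma voom. The median log2 fold change was -0.13. TPX2, the spindle protein that activates AURKA, fell from 116 and 135 RPKM to 77.0 and 66.7 RPKM (log2 fold change -0.79, SE 0.12). HMMR, a microtubule-associated partner of TPX2, fell with a log2 fold change of -0.68 (SE 0.054), and INCENP, an activator of AURKB, with -0.42 (SE 0.049). Leaving out Ctrl replicate 1 or MYCN KD replicate 1 gave 1 riser in this list, as did rescaled totals, with 4 fallers.

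Of 14 PLK1 partners and paralogs, all tested, 2 fell and 2 rose, with a median log2 fold change of -0.052. CDC25A, a phosphatase that activates cyclin-dependent kinases, fell from 35.4 and 36.0 RPKM to 19.3 and 19.0 RPKM. BUB1B, a spindle checkpoint protein, fell with a log2 fold change of -0.33 (SE 0.074). The risers were PLK2 and PLK3. Quantile normalization gave 4 fallers and 2 risers, and rescaled totals gave 1 and 2.

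AURKA and PLK1 are G2/M genes, transcribed most in cells that approach mitosis, and part of the G2/M list fell beside them. Of its 22 genes, all tested, 12 fell and 0 rose by limma, with 0 higher at an unadjusted p under 0.05 and 0 higher by limma voom. The median log2 fold change was -0.31, and the summed level was 1246 to 1270 RPKM in Ctrl and 1002 to 1024 RPKM in MYCN KD. KIF20A, a mitotic kinesin, had 53.5 and 54.1 RPKM in Ctrl against 34.9 and 34.6 RPKM in MYCN KD. CCNA2, cyclin A2, CENPF, a kinetochore protein, and CDC20, an activator of the anaphase-promoting complex, fell with log2 fold changes of -0.57, -0.49 and -0.46. The other 10 genes of the list did not pass. Among these, MKI67 and KIF11 were at 0.0024 and -0.0038, and ANLN was at 0.22, higher in both MYCN KD samples. Across all tested genes, 22.8% were lower by the same rule. Rescaled totals gave 9 fallers in the list, quantile normalization 10, the replicate block 10 and no filter on low values 8. In bulk RNA, fewer cells of a type or phase and less RNA per cell cannot be told apart, and the part of the G2/M list in the results for AURKA and PLK1 was not tested. Leaving out Ctrl replicate 2 or MYCN KD replicate 2 gave 1 riser in this list.

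Promoter sequence was looked up for motifs that bear on MYCN and on the cell cycle. The motifs, searched on both strands in the 250 bases before each annotated start, were the canonical E-box CACGTG that MYCN and MAX bind, the TFAP4-type E-box CAGCTG, the CCAAT box and the cell cycle homology region TTTGAA, which is common in G2/M promoters. Windows came from RefSeq on GRCh38.p14, where PLK1 has 1 start, WDR5 and FBXW7 have 4 each and HUWE1 and USP7 have 3 each. CACGTG was in the PLK1 window and in 1 of 4 WDR5 windows, and 6.34% of all 35116 windows hold it. The PLK1 window held the E-box, the CCAAT box and TTTGAA together, as 0.128% of all windows do. This share was counted only for the combination that the PLK1 window holds, without CAGCTG, so it does not measure how unusual the window is. The shares with each motif alone were 32.01% for CCAAT, 13.32% for TTTGAA and 13.99% for CAGCTG. The 2 windows with CACGTG follow, 5′ to 3′, with the motifs in capitals. The PLK1 sequence is chr16:23678639-23678888 on the plus strand, which ends at the base before the start. The WDR5 sequence is chr9:134136221-134136370 on the plus strand, from 200 to 51 bases before start 4.
PLK1: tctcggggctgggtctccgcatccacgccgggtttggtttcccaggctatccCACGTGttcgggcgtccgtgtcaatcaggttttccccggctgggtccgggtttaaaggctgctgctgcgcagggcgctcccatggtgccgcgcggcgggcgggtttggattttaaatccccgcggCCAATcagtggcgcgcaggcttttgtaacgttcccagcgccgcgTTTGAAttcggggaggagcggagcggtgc
WDR5: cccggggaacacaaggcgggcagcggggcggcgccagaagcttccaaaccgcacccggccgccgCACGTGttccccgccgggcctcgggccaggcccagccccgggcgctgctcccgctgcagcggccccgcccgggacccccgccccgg

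In the PLK1 sequence CACGTG spans positions -198 to -193 from the start, CCAAT positions -73 to -69 and TTTGAA positions -29 to -24. In the WDR5 sequence CACGTG spans positions -136 to -131. Start 1 of WDR5 has CCAAT and TTTGAA, but no CACGTG. FBXW7 has CAGCTG before start 3 and TTTGAA before start 4, and HUWE1 and USP7 each have CCAAT before 1 start. The matches do not overlap each other. They are matches of letters only, and binding at them was not analysed here. The promoters of ZBTB17, TRRAP, TFAP4 and AURKA were not searched. Among the 5 genes searched, PLK1 and WDR5, which have CACGTG in a window, had log2 fold changes of -0.48 and -0.35. FBXW7, USP7 and HUWE1, which have it in no window, had log2 fold changes of -0.55, -0.28 and 0.08.

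**Figure D3:**
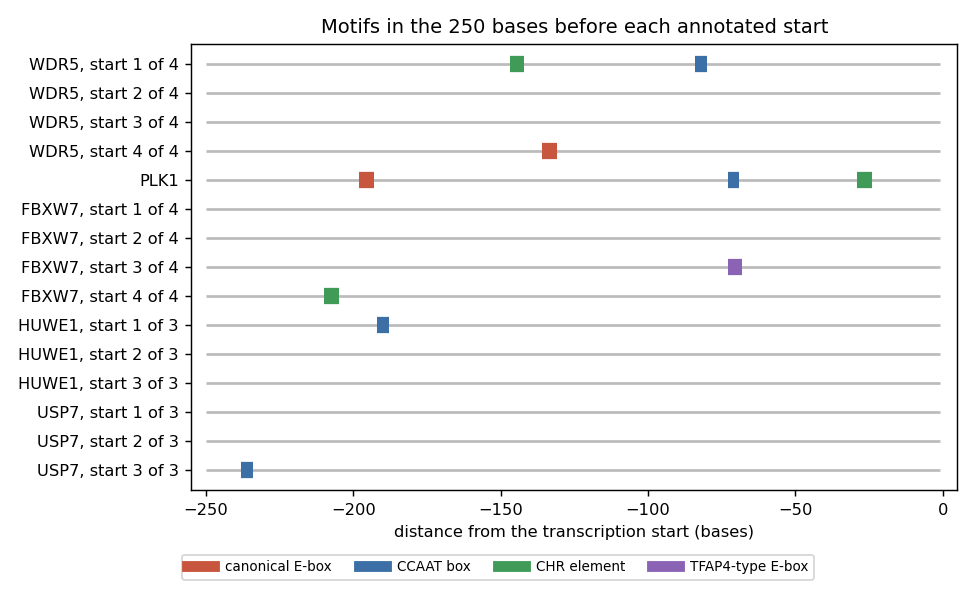
Motif matches in the 250 bases before each RefSeq start of WDR5, PLK1, FBXW7, HUWE1 and USP7, plotted by distance from the start in bases, with 1 line per start. Red marks the canonical E-box, blue the CCAAT box, green the cell cycle homology region (CHR) and purple the TFAP4-type E-box. The PLK1 line is the one with 3 motifs, and 8 of the 15 lines have none.

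FBXW7 is the F-box protein that recognises phosphorylated MYC proteins for the SCF ubiquitin ligase. FBXW7 (chromosome 4, 153241696 to 153457244, minus strand) was the lowest of the 9 genes in every sample, with 3.52 and 3.79 RPKM in Ctrl, from 605 and 609 reads, against 2.24 and 2.10 RPKM in MYCN KD, from 328 and 327 reads. The exact Poisson 95% intervals of the reads, which cover counting error only, were 558 to 655 in Ctrl replicate 1 and 293 to 365 in MYCN KD replicate 1. The means were 3.65 ± 0.186 and 2.17 ± 0.101 RPKM (SD, n = 2 each), so MYCN KD held 59.5% of Ctrl, a share close to that of AURKA. The log2 fold change was -0.55 (SE 0.054, adjusted p = 0.00728 from limma), with a 95% interval from -0.71 to -0.39. The pseudocount shrinks this value more than those of the other genes, and with a pseudocount of 0.1 it was -0.72.

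Of 16 tested genes for the FBXW7 ligase and for enzymes that write or erase the phosphorylated degron of MYC proteins, 3 fell and 1 rose, with a median log2 fold change of 0.053. USP28, a deubiquitinase that counters FBXW7, fell from 8.90 and 10.1 RPKM to 6.58 and 5.84 RPKM. SET, an inhibitor of the phosphatase PP2A, fell with a log2 fold change of -0.51 (SE 0.076). SKP1, the SCF adaptor, fell with -0.32 (SE 0.040), and RBX1, the RING subunit, rose with 0.24 (SE 0.031). Leaving out any 1 library gave 2 risers in this list. Quantile normalization gave 3 fallers and 4 risers, and rescaled totals gave 3 and 3.

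HUWE1, a giant HECT ubiquitin ligase that acts on MYCN, MCL1 and MIZ1, had the smallest log2 fold change of the 9 genes in the values as deposited. It lies on the X chromosome from 53559057 to 53713697, on the minus strand, with 85 exons. It had 42.3 and 42.5 RPKM in Ctrl against 44.8 and 44.6 RPKM in MYCN KD, from 19197 to 21269 reads per sample. Both MYCN KD values were above both Ctrl values by about 2 RPKM, and the means were 42.4 ± 0.141 and 44.7 ± 0.127 RPKM (SD, n = 2 each). The log2 fold change was 0.08 (SE 0.032), short of the threshold (adjusted p = 0.129 from limma), and its 95% interval ran from -0.017 to 0.17. This interval includes neither the log2 fold change of WDR5 nor that of ZBTB17. Rescaling the samples to equal total RPKM moved the value for HUWE1 to 0.14, which passed (adjusted p = 0.0489).

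USP7 is a deubiquitinase that stabilises MYCN as well as MDM2. USP7 (chromosome 16, 8985954 to 9069185, minus strand) had 40.7 and 43.1 RPKM in Ctrl against 35.2 and 33.4 RPKM in MYCN KD, from 5872 to 7966 reads per sample. The groups did not overlap, and the means were 41.9 ± 1.71 and 34.3 ± 1.32 RPKM (SD, n = 2 each). USP7 had a log2 fold change of -0.28 (SE 0.053, adjusted p = 0.0248 from limma), with a 95% interval from -0.44 to -0.12. The call was lost with equal totals (-0.22, adjusted p = 0.0679 from limma). It was also lost without Ctrl replicate 2 (-0.24, SE 0.12) and without MYCN KD replicate 2 (-0.24, SE 0.13). These last 2 fits leave 1 sample in a group, and their SE was larger than the 0.053 with all samples.

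Of 16 tested partners and substrates of USP7 and HUWE1, of 19 listed, 8 fell and 1 rose, with a median log2 fold change of -0.21. HK2, hexokinase 2, fell from 10.4 and 11.2 RPKM to 6.18 and 5.76 RPKM. CDC6, a replication licensing factor, fell from 53.7 and 61.2 RPKM to 35.7 and 31.5 RPKM. Leaving out Ctrl replicate 2 or MYCN KD replicate 2 gave 2 risers. Of 20 tested genes for other ubiquitin ligases and deubiquitinases of MYC proteins, of 22 listed, 7 fell and 3 rose, with a median log2 fold change of -0.0053. The deubiquitinases USP10 and USP36 fell with log2 fold changes of -0.57 and -0.49, and the ligase FBXL14 with -0.55. BTRC, the F-box protein beta-TrCP, rose with 0.49, and the deubiquitinases USP11 and USP22 rose with 0.32 and 0.18. Without MYCN KD replicate 1 this list had 4 fallers.

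**Figure D4:**
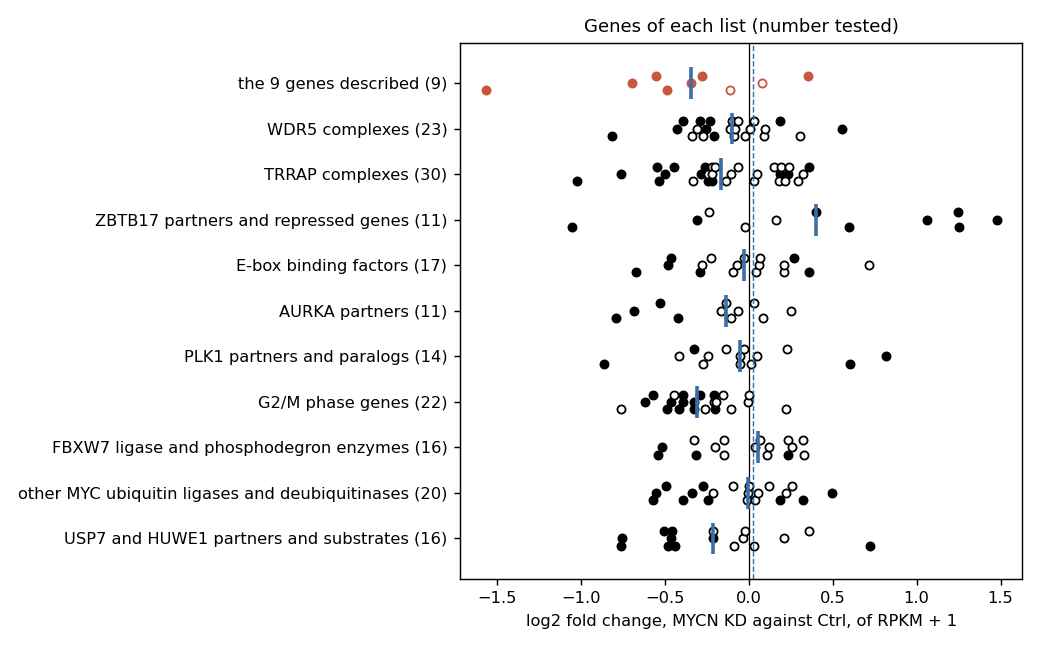
Log2 fold change of RPKM + 1 in MYCN KD against Ctrl for each tested gene of the 9 and of 10 gene lists, 1 row per list with the number tested in parentheses. Filled circles are past an adjusted p of 0.05, open circles are not, blue bars are list medians and the dashed line is the median of all tested genes, 0.026. The medians run from -0.35 for the 9 genes and -0.31 for the G2/M list to 0.40 for the ZBTB17 list.

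The genes with the most similar profiles were found by the root mean square difference of log2(RPKM + 1), centred on each gene's mean, over the 4 samples. HOXC8, a homeobox gene, was nearest to TFAP4 at 0.0274, with 22.1 and 21.4 RPKM in Ctrl against 6.71 and 6.94 RPKM in MYCN KD, followed by LTA4H at 0.0471. ASNS, asparagine synthetase, was nearest to AURKA at 0.00300. RPL13 and RPL41, ribosomal protein genes, were nearest to PLK1, RP9P and DPH5 to FBXW7, TUBE1 and CUL4A to WDR5, ZWINT and ACP1 to USP7, and FN3K and ZNF615 to ZBTB17. The distances of these 10 genes lay between 0.00196 and 0.00641. TFAP4 thus had no neighbour as close as the other 6 genes had. As the 7th lowest tested gene in log2 fold change, TFAP4 had few genes near it, so this is no separate trait.

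**Figure D5:**
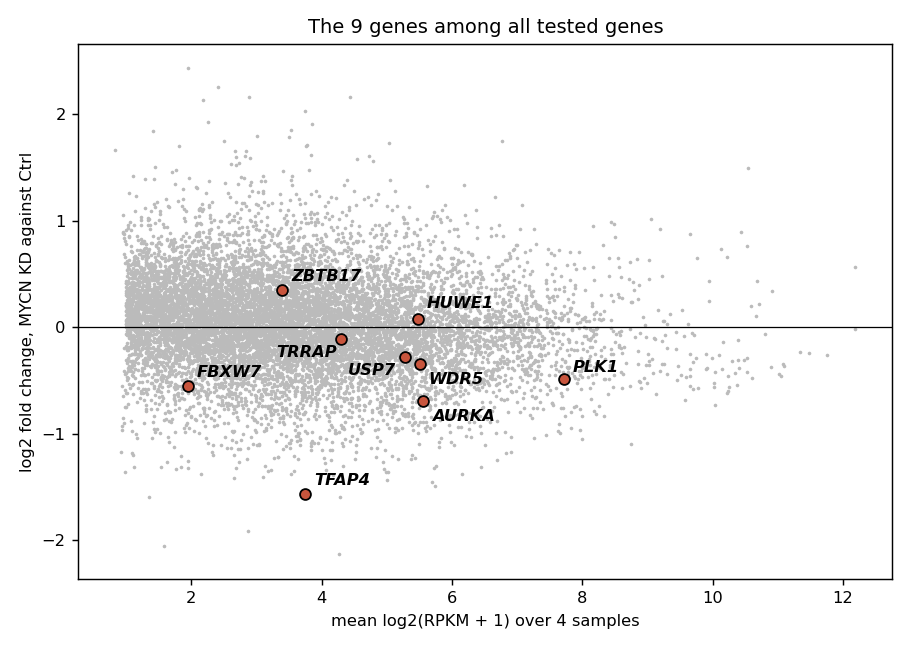
Log2 fold change of RPKM + 1 in MYCN KD against Ctrl over the mean log2(RPKM + 1) of the 4 samples, with the 11411 tested genes in grey and the 9 genes in red. TFAP4, at -1.57, lies at the lower edge of the cloud, with 6 tested genes below it. The other 8 genes, from -0.70 to 0.35, lie inside it.

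With 2 samples against 2, an exact two-sided permutation test cannot give a p under 0.3333, which each of the 9 genes reached. The calls therefore rest on the variance model of limma, which joins each gene's own spread between replicates with a spread shared across genes.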

How the data were processed

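Reads had been mapped to hg19 (HISAT2 2.1.0) and counted on RefSeq genes (featureCounts) by the authors. The authors then modelled the counts (DESeq2) and took out unwanted variation (RUVSeq), whose variant and factor number are not given in the sources used here. The authors deposited RPKM values from the normalized counts, in 1 file per sample. Samples were grouped by their titles. Whole normalized reads were recovered from the RPKM values through small RNA genes of known length. Each gene took the smallest length that gave whole reads in every sample. Of the 19908 genes above 0, 99.94% gave whole reads (tolerance 0.002 reads). Counting intervals cover counting error only.

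Log2(RPKM + 1) was tested with limma 3.58.1 in R 4.3.3 (lmFit, eBayes with a trend) for genes whose mean RPKM reached 1, without a block, and p-values were adjusted over all 11411 genes by the Benjamini-Hochberg method. In 10 sets of data simulated for MYCN KD against Ctrl, 200 genes among 11411 were changed. Of these, 98.79% of 2-fold and 49.18% of 1.41-fold changes were recovered, and 14.31% of calls were false, above the nominal 5%. The simulated replicates were independent, with a spread set in advance, and did not mirror each other as the deposited ones do. These rates therefore need not hold for the deposited values.

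The 9 genes and the lists were chosen with earlier results of these data known. The text names the 9 genes, MYCN, MAX and MYC, close paralogs, up to 4 genes per list with the largest change past the threshold, and the 2 nearest profiles of each gene past it. NCOA6, RBBP5, ASH2L, EPC2, SUPT20H, USP22, CDKN2B, DNMT3A, NPM1, HDAC1, MGA, TFE3 and USP11 were named after their values were seen, as were the markers. Some genes are in 2 lists. A few genes that this rule names are not reported here. Positions are from GENCODE release 44 on GRCh37 (hg19), and promoter windows from RefSeq on GRCh38.p14. Alternatives were another pseudocount, other filters and scalings, eBayes without a trend, a replicate block and each library left out. ChIP-seq and MNase-seq data were not analysed here.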

Additional observations from a re-analysis of the deposited data

How the results depend on the processing

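Of 98 comparisons of the 9 log2 fold changes with an alternative listed at the outset, 91 kept direction and call, 6 lost the call, 1 gained it and 0 changed direction. TFAP4 (-1.70 to -1.51), AURKA (-0.71 to -0.64), FBXW7 (-0.75 to -0.51), PLK1 (-0.57 to -0.38) and WDR5 (-0.37 to -0.29) kept their call in every setting run. FBXW7 had no value at a mean RPKM of at least 5. With the replicate block ZBTB17 stayed at 0.35 (adjusted p = 0.0920) and USP7 at -0.28 (adjusted p = 0.126), and no other of the 9 genes changed call. Same-numbered samples deviated in opposite directions, so the labels' numbers were not taken as pairs; the cause of these deviations was not tested. Of the 9 genes the block called 0 higher by limma and 5 lower, and of all genes 2077 higher and 1851 lower. With rescaled totals USP7 was -0.22 (adjusted p = 0.0679), HUWE1 0.14 (adjusted p = 0.0489), and 2 of the 9 genes were higher and 5 lower. Leaving out 1 library each, ZBTB17 ran from 0.34 to 0.37, USP7 from -0.32 to -0.24, the number higher from 0 to 1 and the number lower from 5 to 6. The 0 came without MYCN KD replicate 2. At an unadjusted p under 0.05, 1 was higher there and 1 under the block, and limma voom called 1. A minimum mean RPKM of 5 gave 1868 genes higher and 2106 lower of 7859, against 2890 and 2599 of 11411. Of these calls 47.01% were higher, against 52.65% in the main fit. Of 109 other genes named or called in the lists, compared 1187 times, 178 comparisons lost the call, 2 gained it and 0 changed direction. The pathway lists had 19 genes higher (13 to 26) and 58 lower (41 to 61). A crossed replicate block, chosen after seeing the data, called 5910 genes higher and 5262 lower, 63 and 109 in the pathway lists, and 2 and 7 of the 9 genes, with TRRAP at -0.11 and HUWE1 at 0.077. Limma voom on the recovered reads, also added then, called 2909 higher and 2584 lower. The cause of these differences was not tested. Depth limits FBXW7 most, with 327 to 609 reads per sample.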
